A study of Mus musculus with 6 samples.

Results

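The constitutive proteasome subunit genes were taken from the expression table as every gene whose symbol is Psma, Psmb, Psmc, Psmd, Psme, Psmf or Psmg followed by a digit, with the immunoproteasome genes Psmb8, Psmb9 and Psmb10 left out. This choice gave 48 of the 21899 genes listed, and 46 of them averaged at least 1 FPKM and were tested. FPKM is a level per length: it divides the fragments of a gene by the summed length of its exons and by the total of the sample. The 48 genes held 14 subunits of the core particle, 17 of the regulatory particle, 7 assembly chaperones, 4 activators, 1 inhibitor, 2 tissue-restricted core subunits and 3 genes that matched by name only.

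RNA was sequenced from Lewis lung carcinoma (LLC) tumors, a transplantable mouse lung tumor line carrying luciferase that was placed under the skin near the left armpit of male C57BL/6 mice of 18 to 20 g. All 3 groups were irradiated with a laser, so no group was left without light, and each had 2 samples. The Laser group received no photosensitizer (the methods give saline), the PC-La group received phycocyanin (PC), a light-absorbing protein of cyanobacteria, and the SePC-La group received phycocyanin enriched in selenium (SePC). The labels give an injection every 5 days, followed after 4 h by 10 min at 620 nm, while the methods describe another wavelength and interval. The mice were adult. Their age is not given more closely in the sources used here, and neither is the time between the last irradiation and sampling. No label states that the 2 samples of a group came from separate mice, so each p-value measures only the spread between these samples. The recovered read totals of the 6 samples ranged from 14447792 to 17649489.

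The samples were labelled as lung cancer tissue. Of 5 lung epithelial markers, Nkx2-1 and Scgb1a1 were below 0.1 FPKM in every sample and only Napsa passed the filter on low values. Of 5 epithelial markers the keratin genes Krt8 and Krt18 passed it. In a bulk tumor sample, fewer cells of a type and less RNA per cell cannot be told apart, and this applies to each level given here.

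The proteasome is the protease that degrades proteins tagged with ubiquitin. Its core particle is a barrel of stacked rings, in which alpha subunits (Psma genes) form the outer rings and the gate, and beta subunits (Psmb genes) form the inner rings that carry the catalytic sites. The regulatory particle caps the barrel. Its base holds a ring of ATPases (Psmc genes) that unfold the substrate, with the scaffold subunits Psmd1 and Psmd2 and the ubiquitin receptor Psmd4, and its lid holds the deubiquitinase Psmd14 among other Psmd subunits. Proteasome subunit genes are known to be raised together by the transcription factor Nfe2l1 when proteasome activity falls, and some also by Nfe2l2 under oxidative stress. Both factors bind antioxidant response elements, whose core letters are TGACNNNGC.

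The promoters of Psmb5, Psmb6, Psmc1 and Psmd14 are shown because the first 2 are the core subunit genes whose windows held the TGACNNNGC letters, and the other 2 had the largest differences from PC-La in the ATPase ring and in the lid. The sequences are RefSeq's on GRCm38.p6 and give the 250 bases before the transcription start, 5′ to 3′ on the gene's own strand. They cover chr14:54617996-54618245 (minus strand) for Psmb5, chr11:70525107-70525356 (plus strand) for Psmb6, chr12:100109952-100110201 (plus strand) for Psmc1 and chr2:61711444-61711693 (plus strand) for Psmd14. Capitals mark TGACNNNGC or CCAAT, the letters bound by the factor NF-Y, on either strand, so that ATTGG in capitals is CCAAT on the opposite strand.
Psmb5: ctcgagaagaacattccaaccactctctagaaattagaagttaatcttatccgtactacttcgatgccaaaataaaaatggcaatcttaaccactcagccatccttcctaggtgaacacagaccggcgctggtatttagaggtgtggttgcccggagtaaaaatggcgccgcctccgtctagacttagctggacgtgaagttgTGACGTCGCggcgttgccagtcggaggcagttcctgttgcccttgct
Psmb6: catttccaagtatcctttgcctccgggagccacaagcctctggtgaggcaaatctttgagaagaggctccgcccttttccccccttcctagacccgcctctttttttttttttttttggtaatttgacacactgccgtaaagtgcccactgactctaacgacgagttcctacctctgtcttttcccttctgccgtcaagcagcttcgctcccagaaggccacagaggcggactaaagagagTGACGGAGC
Psmc1: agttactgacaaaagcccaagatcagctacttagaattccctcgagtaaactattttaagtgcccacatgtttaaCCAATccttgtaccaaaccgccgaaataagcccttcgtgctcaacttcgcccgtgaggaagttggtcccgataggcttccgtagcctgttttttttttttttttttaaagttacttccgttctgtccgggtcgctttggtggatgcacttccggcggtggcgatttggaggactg
Psmd14: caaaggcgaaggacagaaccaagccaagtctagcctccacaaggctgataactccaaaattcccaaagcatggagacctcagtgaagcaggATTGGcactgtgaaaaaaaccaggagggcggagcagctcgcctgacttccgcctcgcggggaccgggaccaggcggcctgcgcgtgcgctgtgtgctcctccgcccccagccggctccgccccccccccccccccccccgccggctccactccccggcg

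In Psmb5 the match TGACGTCGC lay 47 to 39 bases before the start, and in Psmb6 the match TGACGGAGC lay 9 to 1 bases before it. Psmc1 held CCAAT 175 to 171 bases before the start, and Psmd14 held it on the opposite strand 159 to 155 bases before. A RefSeq window of 300 bases, with 250 bases before the start and 50 after, was found for 40 of the 48 genes, and the 8 without one were Psma8, Psmb1, Psmb2, Psmb7, Psmc3, Psmd3, Psmd7 and Psmg2. TGACNNNGC on either strand was present for 2 of 11 core genes, Psmb5 and Psmb6, and for 2 of 14 regulatory genes, Psmc6 and Psmd12. Over all 27025 genes with a window the share was 14%. CCAAT on either strand was present for 6 of 11 core genes and 4 of 14 regulatory genes, against 41.1% of all genes. TATAAA, the letters of the TATA box, on either strand was present for 1 of 11 core genes and 2 of 14 regulatory genes, against 15.7% of all genes. Each motif was counted on its own, whether or not it overlapped another, and each match is a description of letters in a window and not of binding.

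All 31 core and regulatory subunits were expressed in every sample. Core subunit levels, as means over the 6 samples, ran from 116 FPKM for the alpha subunit Psma6 to 26.0 for the catalytic subunit Psmb5, a 4.45-fold range. Regulatory subunit levels ran from 88.1 FPKM for the ATPase Psmc5 to 15.3 for the lid subunit Psmd11, a 5.75-fold range. In the order of the core particle, 4 of 13 neighbouring pairs kept their order in all 6 samples, such as Psmb4 above Psma5 and Psma3 above Psmb7. The other neighbours exchanged places in at least 1 sample, as Psmb7 and Psmb5 did at the bottom. In the regulatory particle 6 of 16 neighbouring pairs kept their order. The coefficient of variation over the 6 samples had a median of 12.3% in the core and 11.7% in the regulatory particle, against 13.1% for the 3284 genes of 15 to 120 FPKM.

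**Figure D1:**
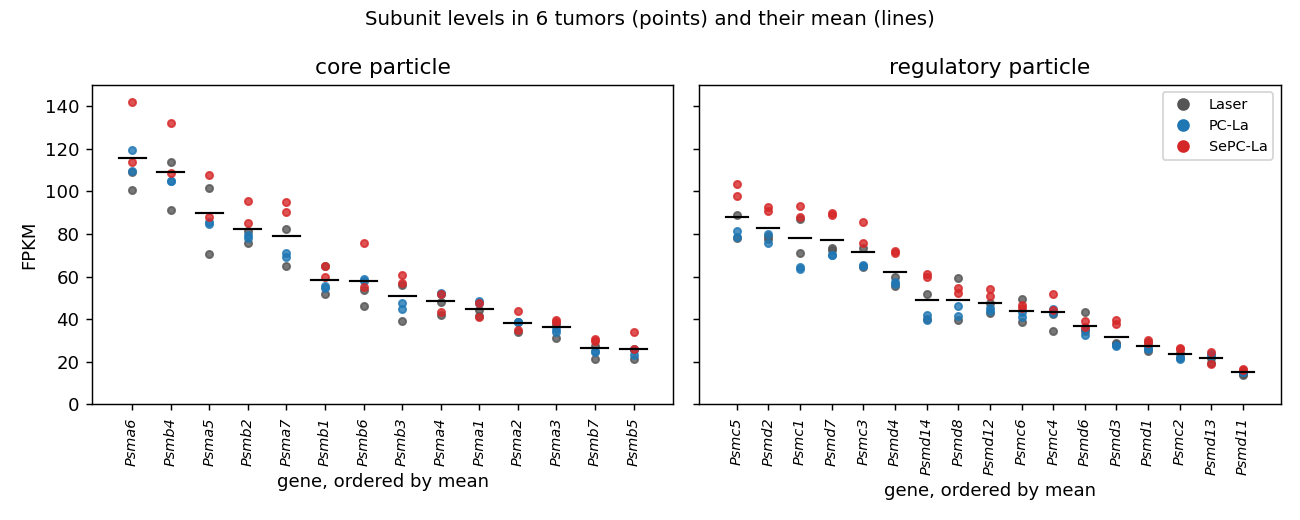
Level in FPKM of each core subunit (left) and regulatory subunit (right), genes ordered by their mean over 6 tumor samples. Points are single samples coloured by group and lines are means. The core runs from 116 FPKM for Psma6 to 26.0 for Psmb5 and the regulatory particle from 88.1 for Psmc5 to 15.3 for Psmd11.

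The subunits stood higher in SePC-La than in both other groups, by a small amount in nearly every gene. Against Laser, 14 of 14 core subunits and 16 of 17 regulatory subunits had a log2 fold change above 0 (all genes tested, 40.2%), with medians of 0.22 and 0.21 beside -0.06 for all genes. As ratios of mean FPKM, the median core subunit was 1.16-fold and the median regulatory subunit 1.17-fold of Laser. Against PC-La, 12 of 14 core subunits and 16 of 17 regulatory subunits were above 0 (all genes tested, 41.5%), with medians of 0.18 and 0.24 beside -0.07 for all genes. Both comparisons use the same SePC-La samples. PC-La and Laser differed less, with medians of 0.04 in the core and -0.06 in the regulatory particle beside 0.00 for all genes.

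No subunit reached an adjusted p under 0.05 in any comparison (limma with Benjamini-Hochberg adjustment over 10853 genes), and neither did any other gene tested (0% in each comparison), and the voom method on the recovered reads gave 0 genes as well. Other alternatives did call genes: in SePC-La against PC-La 637 with only the 4 samples compared, 639 without Laser 1, 643 without Laser 2, 8 under quantile normalization, 3 with a filter at 5 FPKM and 1 without SePC-La 2, in PC-La against Laser 312 without Laser 1, and in SePC-La against Laser 97 without Laser 1 and 1 without SePC-La 2. Psmd14 was the only subunit among them. At an unadjusted p under 0.05, 0 core subunits and 4 regulatory subunits were higher in SePC-La than in Laser (all genes tested, 4.9%), and 1 core subunit and 6 regulatory subunits were higher in SePC-La than in PC-La (all genes tested, 9.91%). None was lower (all genes tested, 7.24% and 14.4%). No subunit met the criterion the study used, an absolute log2 fold change over 1 with an unadjusted p under 0.05, which 0.682% of all genes met against Laser, 2.98% against PC-La and 1.29% in PC-La against Laser.

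Median-ratio scaling, which sets the typical gene level between samples, moved the median of all genes from -0.06 to -0.01 against Laser. The share of genes at an unadjusted p under 0.05 that were higher in SePC-La than in Laser was 40.4% as deposited and 60.2% after that scaling. The core and regulatory medians were then 0.28 and 0.28 against Laser, with 3 and 8 subunits at an unadjusted p under 0.05 (all genes tested after that scaling, 7.1% higher and 4.7% lower). Quantile normalization lowered them to 0.13 and 0.12, with 0 and 1 subunits (all genes tested, 5.02% higher and 4.4% lower), and gave 0.08 and 0.19 against PC-La. Over all 16 alternatives, 11 to 14 core subunits and 14 to 17 regulatory subunits had a log2 fold change above 0 against Laser.

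**Figure D2:**
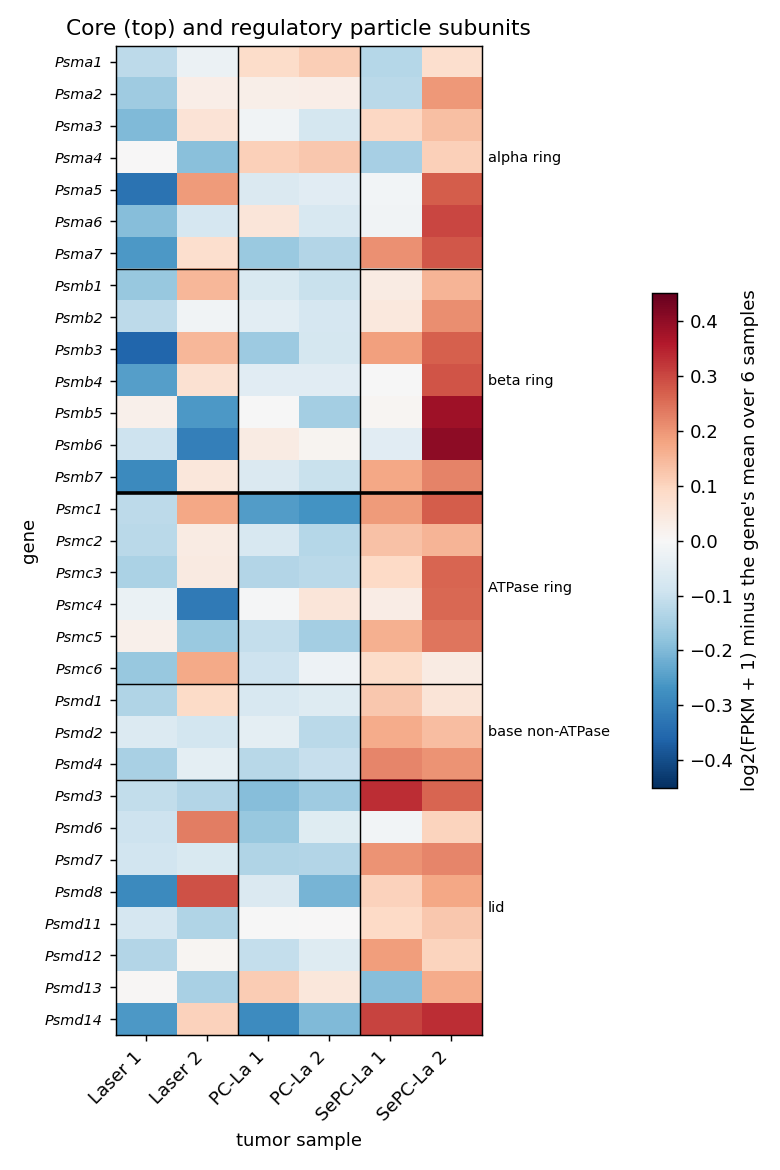
Each subunit gene (rows, core above the thick line and regulatory below) in each tumor sample (columns), as log2(FPKM + 1) minus the gene's mean over the 6 samples. The SePC-La 2 column lies above the gene's mean for all 31 subunits, while SePC-La 1 is high for the ATPase ring, Psmd4, Psmd3, Psmd7 and Psmd14 and mixed in the core.

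The 2 SePC-La samples differed from each other in the core particle and less so in the regulatory particle. SePC-La 2 lay above SePC-La 1 in 14 of 14 core subunits, with a median log2 difference of 0.23, and in 11 of 17 regulatory subunits, with a median of 0.03 (all genes tested, 55.6%). Laser 2 lay above Laser 1 in 11 of 14 core subunits, with a median of 0.22, and in 11 of 17 regulatory subunits, with a median of 0.14 (all genes tested, 46.8%). The PC-La samples were close, with PC-La 2 above PC-La 1 in 6 of 14 and 11 of 17 subunits (all genes tested, 50.1%) and medians of -0.01 and 0.01. Both SePC-La samples lay above all 4 other samples in 5 of 14 core subunits and 11 of 17 regulatory subunits (all genes tested, 11.5%). The 5 core genes were Psma3, Psma7, Psmb2, Psmb3 and Psmb7. Without SePC-La 2 the core median against Laser was 0.11 and without SePC-La 1 it was 0.34, while the regulatory median was 0.20 and 0.24. Against PC-La the core median was 0.07 without SePC-La 2 and 0.31 without SePC-La 1, and the regulatory median 0.24 and 0.25. The Laser samples moved both as well, since without Laser 1 the medians against Laser were 0.11 and 0.14.

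Summed FPKM of the 14 core subunits was 750 and 867 with Laser, 842 and 830 with PC-La, and 872 and 1021 with SePC-La. Summed FPKM of the 17 regulatory subunits was 782 and 851 with Laser, 779 and 777 with PC-La, and 940 and 972 with SePC-La. Both SePC-La sums were the highest for each particle, by a narrow margin over Laser 2 in the core. Summed FPKM of all genes was 279682.2 and 296493.6 with Laser, 285007.3 and 280255.7 with PC-La, and 303796.5 and 310866.0 with SePC-La. This total was thus also highest in the SePC-La samples, with Laser 2 next. The particle sums were not divided by this total, so whether the core ranking goes beyond it was not tested. The regulatory sum divided by the core sum was 1.04 and 0.982 with Laser, 0.924 and 0.936 with PC-La, and 1.08 and 0.951 with SePC-La. The 2 SePC-La values lay on either side of Laser 2, so this ratio did not separate SePC-La from Laser.

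Among the alpha subunits, Psma7 had the highest log2 fold change against both other groups, Psma1 the lowest against Laser and Psma4 the lowest against PC-La. Psma7 was at 65.0 and 82.3 FPKM with Laser, 69.4 and 71.1 with PC-La, and 90.3 and 94.95 with SePC-La. Both SePC-La samples were above the rest, and the log2 fold change was 0.39 against PC-La (SE 0.15, unadjusted p = 0.034, adjusted p = 0.181) and 0.34 against Laser (unadjusted p = 0.059, adjusted p = 0.421). Psma7 was the only core subunit at an unadjusted p under 0.05. Psma1 was at 41.3 and 44.1 FPKM with Laser, 47.7 and 48.6 with PC-La, and 41.0 and 47.4 with SePC-La, and its SePC-La values were both below those of PC-La (log2 fold change -0.12, 95% interval -0.42 to 0.18). Psma4 was at 48.3 and 42.2 FPKM with Laser, 51.9 and 52.4 with PC-La, and 43.3 and 52.0 with SePC-La. Its SePC-La samples lay apart but within the range of the other 4, and the log2 fold change was -0.13 against PC-La (95% interval -0.47 to 0.21).

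The beta ring carries the 3 catalytic subunits, Psmb5 with chymotrypsin-like, Psmb6 with caspase-like and Psmb7 with trypsin-like activity. None of the 3 passed an unadjusted p of 0.05 in any comparison. Psmb5 was at 26.2 and 21.4 FPKM with Laser, 25.7 and 23.0 with PC-La, and 25.9 and 33.9 with SePC-La. Psmb6 was at 53.7 and 46.1 FPKM with Laser, 58.8 and 57.7 with PC-La, and 55.2 and 75.9 with SePC-La. In both genes SePC-La 2 was the highest of the 6 samples, while SePC-La 1 was within the range of the others. Psmb7 was at 21.3 and 27.2 FPKM with Laser, 25.04 and 24.4 with PC-La, and 29.7 and 30.8 with SePC-La, with both SePC-La samples above the rest. The log2 fold changes against Laser were 0.31 for Psmb5 (95% interval -0.11 to 0.74), 0.38 for Psmb6 (-0.05 to 0.80) and 0.32 for Psmb7 (-0.03 to 0.66). Against PC-La they were 0.28 for Psmb5 (-0.15 to 0.70), 0.15 for Psmb6 (-0.28 to 0.58) and 0.28 for Psmb7 (-0.07 to 0.63).

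The other beta subunits are structural. Psmb3 had the largest difference of the ring against PC-La, with 39.0 and 55.9 FPKM with Laser, 44.8 and 47.5 with PC-La, and 57.2 and 60.7 with SePC-La (log2 fold change 0.35, 95% interval -0.09 to 0.79). Its Laser samples lay far apart, 1 below and 1 above both PC-La samples. Psmb1 had the smallest difference against Laser, with 51.7 and 64.9 FPKM with Laser, 55.7 and 54.4 with PC-La, and 59.97 and 64.99 with SePC-La (log2 fold change 0.11, SE 0.15). Its Laser 2 value was nearly that of SePC-La 2. In 7 of 14 core subunits the SePC-La samples lay wholly above Laser (all genes tested, 15%). In 9 of 14 they lay wholly above PC-La (all genes tested, 26%), and Psma1 lay wholly below it (all genes tested, 39.5%).

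**Figure D3:**
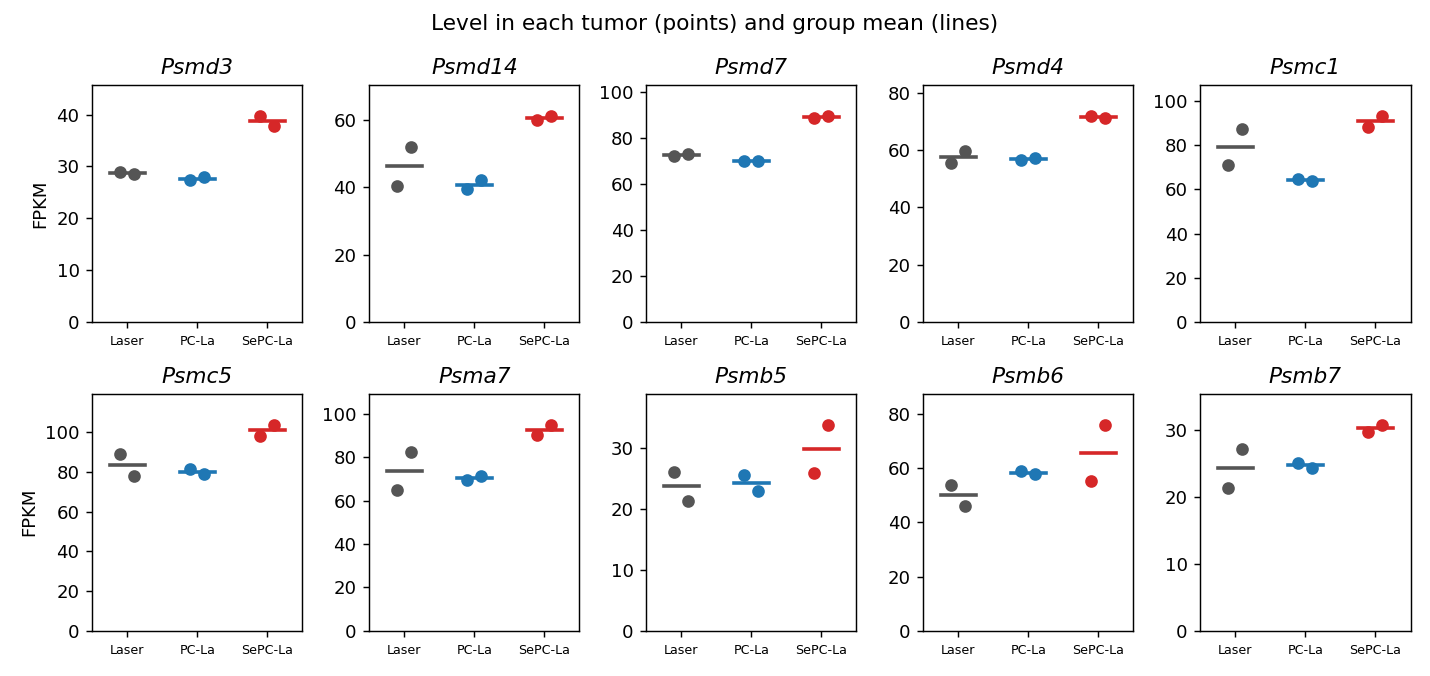
FPKM of 10 subunit genes in each tumor sample (points) with group means (lines), each panel starting at 0. For Psmd3, Psmd14, Psmd7, Psmd4, Psmc1, Psmc5, Psma7 and Psmb7 both SePC-La samples lie above the other 4, whereas for Psmb5 and Psmb6 only SePC-La 2 stands clear.

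All 6 genes of the ATPase ring had log2 fold changes above 0 against Laser and against PC-La, with medians of 0.22 and 0.27. Psmc1 (chr12:100110154-100123405, plus strand) was at 70.9 and 87.1 FPKM with Laser, 64.5 and 63.7 with PC-La, and 88.2 and 93.2 with SePC-La. Its PC-La values were the lowest and its SePC-La values the highest, with no overlap between groups, and SePC-La 1 was close to Laser 2. The log2 fold change was 0.49 against PC-La (SE 0.14, unadjusted p = 0.011, adjusted p = 0.137) and 0.20 against Laser (unadjusted p = 0.19). Psmc5 was at 89.0 and 78.0 FPKM with Laser, 81.3 and 78.7 with PC-La, and 97.9 and 104 with SePC-La. Both SePC-La samples were above the rest, by 0.33 against PC-La on the log2 scale (unadjusted p = 0.037, adjusted p = 0.186) and 0.27 against Laser (unadjusted p = 0.071). Psmc4 and Psmc6 marked the ends of the ring in the comparison with Laser. Psmc4 was at 42.4 and 34.5 FPKM with Laser, 43.1 and 44.98 with PC-La, and 44.3 and 51.9 with SePC-La, a log2 fold change of 0.32 against Laser (95% interval -0.04 to 0.68). Psmc6 was at 38.9 and 49.6 FPKM with Laser, 41.1 and 43.2 with PC-La, and 46.6 and 45.1 with SePC-La, a log2 fold change of 0.06 (95% interval -0.29 to 0.41), with Laser 2 the highest of the 6 samples.

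Of the 3 other base subunits, Psmd2 and Psmd4 had SePC-La samples that lay close together. Psmd4, the subunit that binds ubiquitin chains, was at 55.6 and 59.8 FPKM with Laser, 56.4 and 57.3 with PC-La, and 72.0 and 71.1 with SePC-La. The SePC-La samples stood apart from the other 4, with log2 fold changes of 0.31 against Laser (SE 0.11, unadjusted p = 0.034, adjusted p = 0.388) and 0.33 against PC-La (unadjusted p = 0.026, adjusted p = 0.166). The scaffold gene Psmd2 was at 79.1 and 77.9 FPKM with Laser, 80.1 and 75.8 with PC-La, and 92.8 and 91.0 with SePC-La, again with the SePC-La samples above the rest (log2 fold change 0.22 against Laser, 95% interval -0.05 to 0.50). The other scaffold gene, Psmd1, had its SePC-La samples at 30.0 and 28.8 FPKM on either side of Laser 2 at 29.3, with Laser 1 at 24.99 and PC-La at 26.2 and 26.4.

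The lid held the highest log2 fold change of the 31 subunits in both comparisons of SePC-La, Psmd3 against Laser and Psmd14 against PC-La. Psmd3 (chr11:98682554-98695979, plus strand), a structural lid subunit, was at 28.9 and 28.5 FPKM with Laser, 27.3 and 28.0 with PC-La, and 39.8 and 37.8 with SePC-La. The 4 Laser and PC-La samples lay close together, between 27.3 and 28.9 FPKM, and both SePC-La samples were well above them. The log2 fold change was 0.42 against Laser (SE 0.11, 95% interval 0.15 to 0.69, unadjusted p = 0.0078, adjusted p = 0.376) and 0.47 against PC-La (95% interval 0.21 to 0.74, unadjusted p = 0.0044, adjusted p = 0.126). Those were the smallest p-values of all subunits in these comparisons, and the unadjusted p was under 0.05 in each of 16 alternatives in both.

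Psmd14 (chr2:61711694-61800376, plus strand), the metalloprotease that cuts ubiquitin from the substrate, was at 40.2 and 52.0 FPKM with Laser, 39.5 and 41.9 with PC-La, and 59.8 and 61.1 with SePC-La. Both SePC-La samples were the highest, and Laser 2 lay between them and the other 3. The log2 fold change was 0.56 against PC-La (SE 0.15, unadjusted p = 0.0089, adjusted p = 0.134), the largest of the 31 subunits, and 0.39 against Laser (unadjusted p = 0.037, adjusted p = 0.391). Without Laser 1 the difference from Laser was 0.21 (unadjusted p = 0.144), and without Laser 2 it was 0.58 (unadjusted p = 0.0047). Against PC-La the adjusted p of Psmd14 was under 0.05 in 3 of 16 alternatives, those without a Laser sample or with only the 4 samples compared, in which 5.87% to 5.92% of all genes tested had such a p.

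Psmd7, the inactive partner of Psmd14 in the lid, was at 72.5 and 73.4 FPKM with Laser, 70.0 and 70.1 with PC-La, and 88.8 and 89.8 with SePC-La. Its replicates lay close together and both SePC-La samples stood apart, and the log2 fold changes were 0.29 against Laser (unadjusted p = 0.038, adjusted p = 0.391) and 0.35 against PC-La (unadjusted p = 0.018, adjusted p = 0.151). Not all lid subunits followed. Psmd6 was at 34.3 and 43.2 FPKM with Laser, 32.4 and 35.3 with PC-La, and 36.3 and 39.3 with SePC-La, with Laser 2 highest and a log2 fold change of -0.03 against Laser (95% interval -0.38 to 0.33). Psmd13 was at 21.9 and 19.6 FPKM with Laser, 23.7 and 22.6 with PC-La, and 19.0 and 24.6 with SePC-La, with SePC-La 1 the lowest and SePC-La 2 the highest of the 6 samples. Its log2 fold change was -0.09 against PC-La (95% interval -0.46 to 0.28). Psmd8, Psmd11 and Psmd12 lay between these, with log2 fold changes against Laser of 0.14 to 0.21. The SePC-La samples lay wholly above Laser in 12 of 17 regulatory subunits (all genes tested, 15%) and wholly above PC-La in 15 of 17 (all genes tested, 26%).

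**Figure D4:**
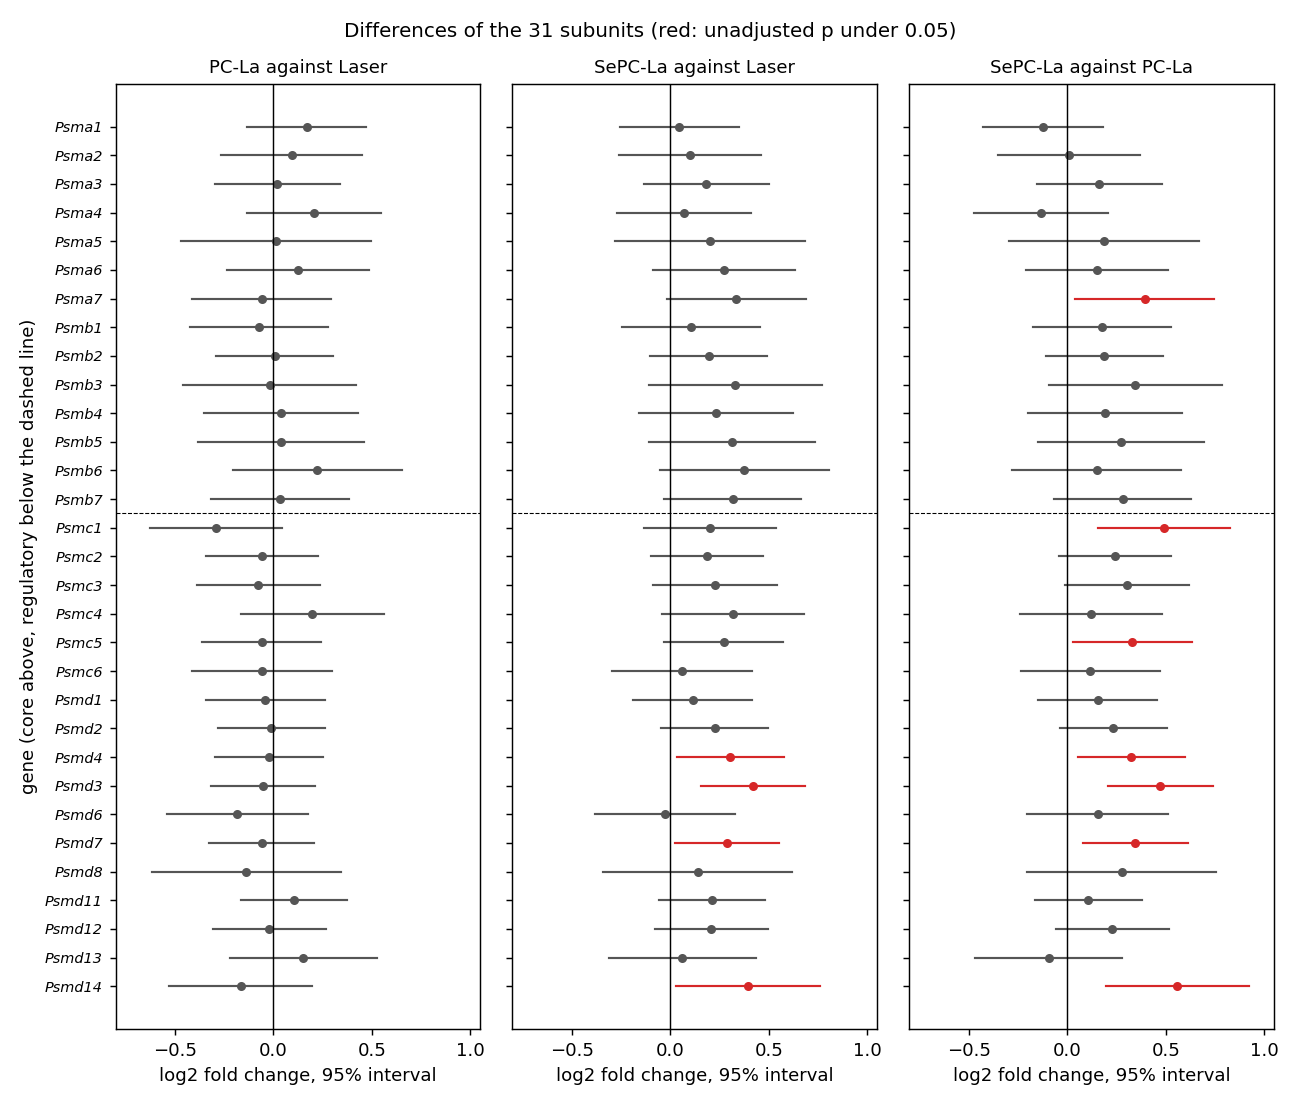
Log2 fold change and 95% interval of each of the 31 subunits in the 3 comparisons, core above and regulatory below the dashed line, with an unadjusted p under 0.05 in red. Nearly all points lie right of 0 in both comparisons of SePC-La, with 4 regulatory genes in red against Laser, and 6 regulatory genes and Psma7 in red against PC-La.

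The comparison of PC-La with Laser asks what phycocyanin added to light alone. No core and no regulatory subunit had an unadjusted p under 0.05 (all genes tested, 3.38% higher and 2.4% lower). In the core 11 of 14 subunits were above 0 and in the regulatory particle 3 of 17 (all genes tested, 49.9%). The lowest was Psmc1 at -0.29 (SE 0.14, unadjusted p = 0.080, adjusted p = 0.753) and the highest was Psmb6 at 0.22 (SE 0.18, unadjusted p = 0.252). The groups did not overlap in 4 core subunits and 3 regulatory subunits with PC-La higher (all genes tested, 20.4%), and in 3 regulatory subunits with PC-La lower (all genes tested, 21.6%). These signs rested on the Laser samples. Without Laser 1 the core median was -0.08 and the regulatory median -0.09, with 4 regulatory subunits, Psmc1, Psmd6, Psmd8 and Psmd14, at an unadjusted p under 0.05, all lower in PC-La (all genes tested without Laser 1, 10.4% lower). Without Laser 2 the medians were 0.17 and 0.02.

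The assembly chaperones bind subunits while the particle is built and are not part of the finished protease. In SePC-La against PC-La 7 of 7 were above 0 (all genes tested, 41.5%), with a median of 0.31, and 1 was higher at an unadjusted p under 0.05 (all genes tested, 9.91%). That gene, Psmd10 (gankyrin), which holds an ATPase during assembly of the base, was at 15.7 and 19.5 FPKM with Laser, 15.9 and 16.2 with PC-La, and 19.9 and 22.3 with SePC-La. Both SePC-La samples were above the rest, and the log2 fold change was 0.37 against PC-La (unadjusted p = 0.041, adjusted p = 0.191) and 0.25 against Laser (unadjusted p = 0.124). Against Laser 6 of 7 chaperones were above 0 (all genes tested, 40.2%), with a median of 0.14, and the exception was Psmd9 at -0.13.

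The base chaperones Psmd5 and Psmd9 were high in a Laser sample. Psmd5 was at 11.6 and 18.6 FPKM with Laser, 12.1 and 12.4 with PC-La, and 15.1 and 16.0 with SePC-La, and Psmd9 was at 5.04 and 6.12 with Laser, 4.81 and 4.33 with PC-La, and 4.76 and 5.22 with SePC-La. In both genes Laser 2 was the highest of the 6 samples. Psmg1 to Psmg4 guide assembly of the core. Psmg1 was at 13.7 and 14.97 FPKM with Laser, 12.0 and 13.2 with PC-La, and 13.6 and 18.6 with SePC-La. Psmg2 was at 21.9 and 22.4 FPKM with Laser, 20.8 and 22.1 with PC-La, and 20.6 and 24.4 with SePC-La. In these 2 genes SePC-La 2 was the highest sample, while SePC-La 1 lay among the others for Psmg1 and was the lowest for Psmg2. Psmg3 was the lowest of the tested members, at 0.946 and 1.31 FPKM with Laser, 1.22 and 0.970 with PC-La, and 1.75 and 1.82 with SePC-La, from 42 to 92 reads. Its log2 fold change on the log2(FPKM + 1) scale, which understates differences of low genes, was 0.39 against Laser (unadjusted p = 0.077) and 0.41 against PC-La (unadjusted p = 0.066). Psmg4 was at 33.0 and 27.6 FPKM with Laser, 30.9 and 34.2 with PC-La, and 38.8 and 37.2 with SePC-La, with both SePC-La samples above the rest and a log2 fold change of 0.32 against Laser (unadjusted p = 0.053).

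The activators bind the core in place of the regulatory particle. Psme1 and Psme2 form the PA28 cap, which is induced by interferon gamma. Both photosensitizer groups lay above Laser in these genes, as they also did in the subunits Psma6, Psmb6, Psmc4 and Psmd11. Psme1 was at 56.2 and 50.2 FPKM with Laser, 70.2 and 67.5 with PC-La, and 65.0 and 74.1 with SePC-La. All 4 samples with a photosensitizer were above both Laser samples, with log2 fold changes of 0.37 for PC-La (unadjusted p = 0.028, adjusted p = 0.753) and 0.38 for SePC-La (unadjusted p = 0.025, adjusted p = 0.382). Psme2 was at 47.0 and 44.2 FPKM with Laser, 56.1 and 58.1 with PC-La, and 51.9 and 65.6 with SePC-La, in the same order, with 0.32 (unadjusted p = 0.069) and 0.35 (unadjusted p = 0.051). SePC-La and PC-La differed by 0.01 in Psme1 (95% interval -0.30 to 0.33) and by 0.03 in Psme2 (-0.32 to 0.38). Without Laser 2 the unadjusted p of Psme1 was 0.092 for PC-La and 0.082 for SePC-La.

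Psme3, the nuclear activator PA28 gamma, was at 55.3 and 63.1 FPKM with Laser, 44.7 and 52.6 with PC-La, and 75.8 and 57.1 with SePC-La. PC-La was the lowest group and SePC-La 2 lay within the Laser range, and SePC-La was higher than PC-La by 0.43 on the log2 scale (SE 0.18, unadjusted p = 0.048, adjusted p = 0.203). Psme4 (PA200) was at 14.5 and 16.5 FPKM with Laser, 16.0 and 15.9 with PC-La, and 14.6 and 14.4 with SePC-La. The inhibitor Psmf1 (PI31) was at 6.31 and 6.59 FPKM with Laser, 6.23 and 6.14 with PC-La, and 5.49 and 6.30 with SePC-La. Neither gene had higher values in SePC-La, with log2 fold changes against Laser of -0.09 for Psme4 (95% interval -0.38 to 0.20) and -0.11 for Psmf1 (-0.43 to 0.20).

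Of the 3 genes that matched by name only, Psme2b resembles a retrocopy of Psme2, and its reads may be shared with Psme2, so its level is uncertain. It was at 23.9 and 22.3 FPKM with Laser, 32.2 and 31.9 with PC-La, and 28.0 and 35.7 with SePC-La, with both photosensitizer groups above Laser (log2 fold changes 0.46 and 0.44, unadjusted p = 0.019 and 0.022, adjusted p = 0.753 and 0.382). Psmc3ip, a meiotic recombination factor, was higher in SePC-La than in PC-La by 0.35 (unadjusted p = 0.047, adjusted p = 0.201), from 5.98 and 5.70 to 7.16 and 8.25 FPKM. Psme3ip1 ranged from 11.3 to 14.2 FPKM. Psma8 and Psmb11, the core subunits of testis and thymus, had 0 to 3 and 0 to 4 reads a sample and were not tested.

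In the immunoproteasome, Psmb8, Psmb9 and Psmb10 take the places of Psmb5, Psmb6 and Psmb7. They are not members of the group described here. Their RNA level relative to the constitutive counterpart is given as a description of the bulk sample. It does not show how the catalytic sites were made up. Psmb8 divided by Psmb5 was 0.124 and 0.0769 with Laser, 0.250 and 0.317 with PC-La, and 0.106 and 0.189 with SePC-La. Psmb9 divided by Psmb6 was 0.144 and 0.129 with Laser, 0.190 and 0.226 with PC-La, and 0.188 and 0.190 with SePC-La. Psmb10 divided by Psmb7 was 2.295 and 2.16 with Laser, 2.88 and 3.02 with PC-La, and 2.26 and 2.52 with SePC-La. PC-La had the highest mean in all 3 ratios, and SePC-La overlapped Laser for Psmb8 and Psmb10 but not for Psmb9. The ratios depend on both genes. In SePC-La the log2 fold changes of Psmb8, Psmb9 and Psmb10 themselves were 0.65, 0.77 and 0.42 against Laser. Against PC-La they were -0.575, 0.02 and -0.02, and no adjusted p was under 0.05. Psmb10 was at 49.0 and 58.9 FPKM with Laser, 72.2 and 73.8 with PC-La, and 67.2 and 77.6 with SePC-La, so its SePC-La level did not overlap Laser. An exact permutation test of 2 samples against 2 cannot give a two-sided p below 0.333, so none was used.

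**Figure D5:**
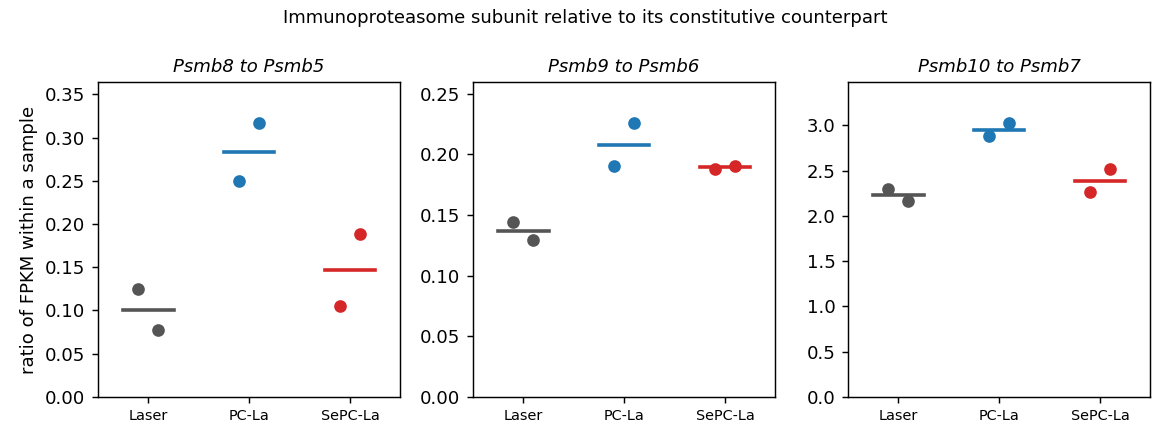
FPKM of each immunoproteasome subunit divided by that of its constitutive counterpart in each tumor sample (points) with group means (lines), each panel starting at 0. The PC-La mean lies highest in all 3 panels, at 0.283 for Psmb8 to Psmb5, with single samples at 0.250 and 0.317. SePC-La overlaps Laser in 2 panels and meets the lower PC-La value for Psmb9.

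Other genes of the ubiquitin and proteasome pathway were taken as a list of 29, all of which were tested. In PC-La against Laser 0 of 29 had an unadjusted p under 0.05 (all genes tested, 3.38% higher and 2.4% lower). In SePC-La against Laser 1 was higher and 2 were lower (all genes tested, 4.9% and 7.24%), and in SePC-La against PC-La 2 were higher and 1 was lower (all genes tested, 9.91% and 14.4%). The list medians in these 2 comparisons were 0.06 and 0.05, beside -0.06 and -0.07 for all genes. The higher genes were the polyubiquitin gene Ubb (0.41 against Laser, unadjusted p = 0.041), the ubiquitin receptor of the regulatory particle Adrm1 (0.34 against PC-La, unadjusted p = 0.039) and the ubiquitin fusion gene Rps27a (0.48 against PC-La, unadjusted p = 0.048). The lower genes were the E1 enzyme gene Uba6 (-0.36 against Laser, unadjusted p = 0.044) and Ddi2, the protease that activates Nfe2l1 (-0.31 against Laser, unadjusted p = 0.0498, and -0.37 against PC-La, unadjusted p = 0.025). None had an adjusted p under 0.05 by limma. Nfe2l1 was at 41.9 and 34.96 FPKM with Laser, 40.7 and 43.4 with PC-La, and 43.5 and 38.1 with SePC-La, and Nfe2l2 was at 68.6 and 51.4 with Laser, 68.1 and 67.7 with PC-La, and 58.7 and 63.0 with SePC-La. The groups of both genes overlapped between SePC-La and Laser. Pomp, which helps to close the core, was at 18.9 and 19.9 FPKM with Laser, 18.9 and 19.5 with PC-La, and 19.9 and 24.4 with SePC-La.

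Cell markers moved between the samples as well. Summed FPKM of 4 erythroid markers was 125 and 13.6 with Laser, 260 and 358 with PC-La, and 606 and 916 with SePC-La, and that of 5 neutrophil markers was 148 and 31.9, 144 and 76.8, and 330 and 434. Both lists were highest in SePC-La. Summed FPKM of 7 proliferation markers was 326 and 404 with Laser, 321 and 342 with PC-La, and 424 and 398 with SePC-La, so the sums of Laser 2 and SePC-La lay above PC-La. Of these markers Mki67 went the other way, with 39.95 and 40.5 FPKM under Laser, 39.6 and 40.8 under PC-La, and 35.4 and 32.0 under SePC-La (unadjusted p = 0.072 against Laser and 0.074 against PC-La). Skeletal muscle markers summed to 20.9 and 137 FPKM in Laser and at most 5.94 elsewhere, and fibroblast markers to 228 and 34.0 with Laser, 404 and 301 with PC-La, and 22.5 and 135 with SePC-La. The 2 Laser samples thus differed in muscle, fibroblast, erythroid and neutrophil markers. They also differed in summed macrophage (808 and 1554 FPKM), adipocyte (6.10 and 1.57) and T cell markers (5.98 and 2.14). Most of the macrophage sum was Lyz2 alone, at 681 and 1409 FPKM. Laser 2 lay above Laser 1 in 4 of 5 macrophage markers, and Csf1r went the other way, at 25.5 and 17.5 FPKM. SePC-La 1 and SePC-La 2 differed in fibroblast markers, and in summed adipocyte (3.08 and 19.9 FPKM) and T cell markers (1.87 and 5.63). SePC-La 2 also lay above SePC-La 1 in 5 of 5 macrophage markers, with a median log2 difference of 0.87 (all genes tested, 55.6%). The part of these cells in the subunit levels was not tested.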

How the data were processed

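The authors deposited 1 table with a value for each gene in each of the 6 samples. The submitters' processing notes name HISAT2 2.0.5, HTSeq 0.9.1, DESeq 1.30.0 and mm9, and no unit. The deposited values are FPKM. Multiplied by the merged exon length of GENCODE M21 (GRCm38), they gave whole reads in all 6 samples for 97.9% of the expressed genes (tolerance 0.05). The table's gene models are thus those of GRCm38, not mm9, and coordinates here are those of GENCODE M21 and RefSeq on GRCm38. Whether counting used strand is not given in the sources used here.

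A linear model (limma 3.58.1, R 4.3.3) was fitted to log2(FPKM + 1) of the 10853 genes that averaged at least 1 FPKM, with 1 mean per group, trend and robust moderation (6.4 degrees of freedom) and Benjamini-Hochberg adjustment over all genes tested. No count model was used for this main fit, since the table holds FPKM, and voom on the recovered reads served as an alternative. Scripts were tested on simulated data. Intervals and SEs are those of this fit. Fold changes are on the log2(FPKM + 1) scale, and ratios are of mean FPKM.

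Values per sample were given for the catalytic subunits, the highest and lowest gene of each subcomplex and comparison, the 5 smallest p-values of each comparison, and the activators and inhibitor. Other genes named with values (Pomp, Nfe2l1, Nfe2l2 and those at an unadjusted p under 0.05) were chosen after their values were seen. The genes and lists were chosen with earlier results of these data known. The results text of the study describes 3 samples a group, while its methods and the labels give 2. Alternatives were another pseudocount (0.1), no filter, a filter at 5 FPKM, quantile or median-ratio normalization, moderation without the trend or without robust estimation, only the 4 samples compared, the replicate number as a block, each sample left out, and, added after seeing the data, voom on the recovered reads. Plots were made with Python 3.11.15, pandas 2.3.3 and matplotlib 3.10.9.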

Additional observations from a re-analysis of the deposited data

How the results depend on the processing

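Under the alternatives, 288 values on counts and medians of the 2 particles were compared. Of these, 255 stayed within the spread between replicates or within 1.5 times the count, and 33 moved. No called result reversed, although both medians of PC-La against Laser changed sign without 1 of the Laser samples. Many of the 255 could not move, so this number does not measure robustness. A median stays the same under the other filters, the moderation settings, the 4 samples alone, the block, or a sample left out of the third group. Every count at an adjusted p under 0.05 began at 0, and nearly all stayed there. For the core median the spread was 0.135, so a move from 0.04 to -0.08 lay within it. Under median-ratio scaling the core had 3 subunits at an unadjusted p under 0.05 in SePC-La against Laser. The regulatory particle had 8 there with a median of 0.28 (all genes tested, 7.1% higher and 4.7% lower). The regulatory median was 0.32 against PC-La. Quantile normalization gave 0 core subunits and 3 regulatory subunits (median 0.19) against PC-La (all genes tested, 11.5% higher and 10.6% lower). Against Laser it gave 1 regulatory subunit with a median of 0.12 (all genes tested, 5.02% higher and 4.4% lower). With only the 4 samples compared there were 3 core subunits against PC-La (all genes tested, 13.1% higher and 20.3% lower). At that setting 1 regulatory subunit passed against Laser (all genes tested, 2.9% higher and 3.6% lower). Against PC-La 1 regulatory subunit, Psmd14, had an adjusted p under 0.05, as did 5.87% of all genes tested. The causes were not tested.

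With each sample left out in turn, which leaves a lone sample assumed to vary like the other groups, the number of core subunits at an unadjusted p under 0.05 ranged from 0 to 4 in SePC-La against Laser and from 0 to 3 against PC-La. For regulatory subunits it ranged from 0 to 4 in PC-La against Laser (4 without Laser 1), from 1 to 5 in SePC-La against Laser (5 without Laser 2) and from 1 to 8 against PC-La (1 without PC-La 1). The number at an adjusted p under 0.05 against PC-La ranged from 0 to 1 (1 without a Laser sample, when 5.89% and 5.92% of all genes tested had such a p). The regulatory median ranged from -0.091 to 0.021 in PC-La against Laser and from 0.14 to 0.26 in SePC-La against Laser.

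Samples that share a replicate number did not deviate together (correlations of 0.09, -0.43 and -0.18 between pairs of groups), so the number was not taken as a pairing. With the replicate block 2 regulatory subunits had an unadjusted p under 0.05 in SePC-La against Laser (all genes tested, 3.61% higher and 5.03% lower). Against PC-La there were 4 (all genes tested, 7.87% higher and 10.8% lower). With 2 samples a group, small differences in single subunits were not resolved. The lowest tested gene, the assembly chaperone Psmg3, had its fewest reads, 42, in PC-La 2.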
